A study of Mus musculus with 12 samples.

Results

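The BCL2 family decides, at the outer membrane of the mitochondrion, whether a cell lives or enters apoptosis, and 10 of its genes were followed here through the conversion of mouse cochlear glial cells into neurons. The genes were chosen by symbol in the deposited expression table, where each had 1 row, and make up 10 of the 55487 genes listed. They fall into 3 classes by the role of their proteins. The 3 anti-apoptotic genes were Bcl2, Bcl2l1 (coding for BCL-XL) and Mcl1, the 2 effector genes were Bax and Bak1, and the 5 BH3-only genes were Bbc3 (PUMA), Pmaip1 (NOXA), Bcl2l11 (BIM), Bid and Bad. All 10 passed the limit on low values that left 16016 genes for testing.

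As background, anti-apoptotic proteins hold the effectors and the BH3-only proteins in inactive complexes. When free, the effectors form pores that release cytochrome c and so start the caspase cascade. BH3-only proteins carry stress signals into this balance, and they differ in their partners: NOXA binds mainly MCL1, BAD binds mainly BCL2 and BCL-XL, and BIM, PUMA and BID bind widely, with BID also linking death receptors to mitochondria. In developing neurons, loss of trophic support is known to induce BIM and PUMA, and BAX carries out most of the death that follows, while Bcl2l1 and Mcl1 are needed for neuronal survival. Gene-level RNA values do not separate splice forms, such as the long and short forms of Bcl2l1, and say nothing of protein, where MCL1, NOXA and BAD are strongly regulated.

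Poly(A) RNA was sequenced from 12 cultures in 4 groups of 3, all from cochleae of postnatal day 4 mice on a mixed background of C57Bl6 and FVB/N (a protocol shared by all samples names a wider range of ages). Spheres are floating glial cultures grown in DMEM/F12 with 20 ng/ml EGF, 10 ng/ml bFGF, 50 ng/ml IGF and 50 ng/ml heparan sulfate. By the study's own account they also held non-glial, mesenchyme-like cells. Plated spheres were then differentiated in SCDM (DMEM/F12 with 50 ng/ml of each of the neurotrophins BDNF and NT3), in SCDM/FGF (the same with 100 ng/ml bFGF) or in FIBCL. FIBCL is Neurobasal Medium holding 20 µM Forskolin (raises cyclic AMP), 20 µM ISX9 (a neurogenic compound), 1 µM I-BET (a BET bromodomain inhibitor), 10 µM Chir99021 (a GSK3 inhibitor), 1000 U/ml of the cytokine LIF, and bFGF, which the labels list at both 100 and 50 ng/ml. The deposited columns of these libraries carry the name FIBC, which the study also gives to the mixture without LIF. The presence of LIF rests on the sample labels and on the study, which calls the sequenced group FIBCL. BDNF and NT3 are not listed for FIBCL, so that base medium, growth factors and small molecules differed together between FIBCL and both control media, and the part of each cannot be told apart. Differentiated cultures were analysed after 14 days by the labels. The labels call the 3 libraries of a group biological replicates without saying how the cultures were separate, and the p-values measure the spread between these libraries.

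Levels are given as TPM after rescaling between libraries (scaled TPM), where TPM is a transcript's share of all transcripts with its length divided out, so that levels can be set side by side between genes. The depth of the libraries is unknown, because TPM keeps no reads. Differences are on the scale of log2(scaled TPM + 1), which understates the change of low genes, and were tested with limma and Benjamini-Hochberg adjustment over all 16016 genes, with a call at an adjusted p under 0.05. The choice of scale matters for small differences: without rescaling, the median gene moved by −0.40 on the log2 scale between FIBCL and SCDM, against −0.07 after it. Levels of cell markers also differed between the groups. Over the 3 libraries of a group, the summed level of 7 glial markers was 476 to 500 in spheres, 155 to 181 in SCDM, 168 to 194 in SCDM/FGF and 15.6 to 20.6 in FIBCL, where 3 of the 7 averaged under 1, and that of 8 neuronal markers was 12.2 to 13.1, 18.2 to 21.2, 16.4 to 21.7 and 395 to 421, with 5 of the 8 averaging under 1 in each group but FIBCL. Markers of mesenchymal cells (8 genes, all averaging 1 or more in every group) summed to 4986 to 5991 in the 2 control media, 2366 to 2406 in spheres and 161 to 174 in FIBCL. In each FIBCL comparison 7 of these 8 markers were called lower and 1 higher. The higher difference was 1.18 on the log2 scale against SCDM, 1.10 against SCDM/FGF and 1.74 against spheres for such markers. Those of macrophages (7 genes) summed to 942 to 1062 in the control media, 77.4 to 93.5 in spheres and 158 to 183 in FIBCL, where 4 of the 7 averaged under 1. The FIBCL sum was mostly Cd68, a lysosomal protein gene (164 scaled TPM in FIBCL, 36.5 in spheres), and the other 6 macrophage markers were lower in FIBCL than in spheres, with C1qa at 0.384 against 22.7 and Csf1r at 0.334 against 5.18. Those of dividing cells (6 genes) summed to 146 to 226 in the control media, 69.5 to 70.5 in spheres and 3.78 to 4.51 in FIBCL, where 5 of the 6 averaged under 1. In such bulk samples a change in the cells present and a change in RNA per cell cannot be told apart, and the part of the cell makeup in the results that follow was not tested.

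In FIBCL cultures the largest differences among the 10 genes were in BH3-only genes, in both directions. Pmaip1, at 3.13 scaled TPM or less in the other 9 libraries, averaged 159, Bcl2l11 and Bid stood 6.37 and 2.76 times above SCDM, and Bad stood at 0.505 of SCDM. Bax was 1.94 times and Bcl2l1 1.70 times higher than in SCDM. Mcl1 did not pass the test.

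**Figure D1:**
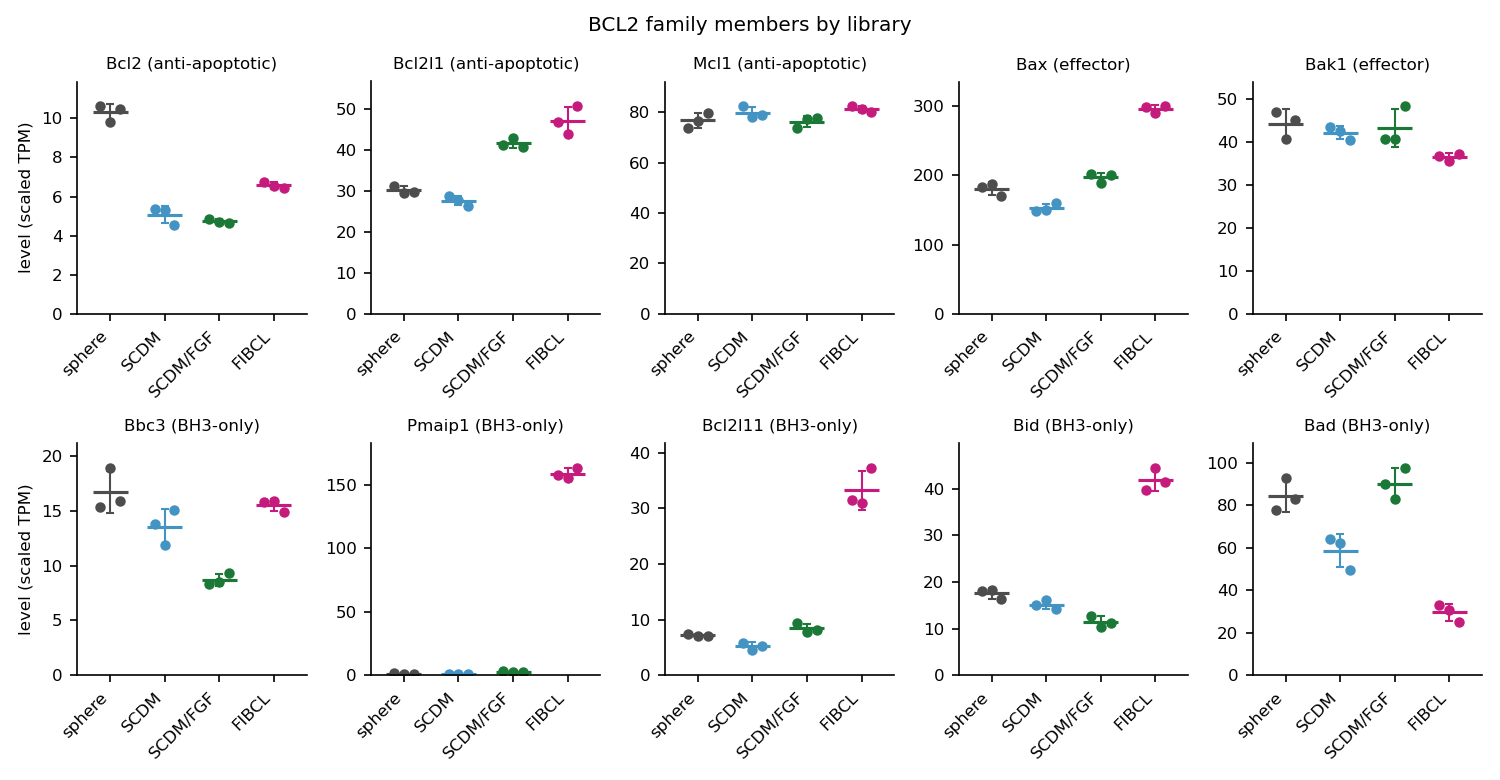
Level of each gene in scaled TPM (vertical axes, linear and starting at 0) in spheres, SCDM, SCDM/FGF and FIBCL, with 1 point per library, the mean as a bar and the SD as whiskers (n = 3). Pmaip1 lies at 155 to 163 in the 3 FIBCL libraries and at 3.13 or less in the other 9, while Mcl1 lies between 73.7 and 82.4 in all 12.

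Pmaip1 codes for NOXA, a BH3-only protein first known as a target of p53 and a partner of MCL1. The gene lies on chromosome 18 of GRCm38 (66458533 to 66465565, plus strand) and shares no exon with another annotated gene. Its level was 158, 155 and 163 scaled TPM in FIBCL libraries 1 to 3. In SCDM it was 0.932, 1.27 and 0.746, in SCDM/FGF 3.13, 2.39 and 2.79, and in spheres 1.70, 0.864 and 1.26. Every FIBCL library thus stood far above the other 9. The ratio of group means was 162 against SCDM, 57.2 against SCDM/FGF and 125 against spheres. On the log2 scale the differences were 6.34 ± 0.14 (SE; adjusted p = 9.9e-12, limma), 5.41 ± 0.14 (adjusted p = 3.44e-11, limma) and 6.15 ± 0.14 (adjusted p = 1.32e-11, limma). Ordered from the highest difference, Pmaip1 came at place 15 of 16016 genes against SCDM, 24 against SCDM/FGF and 15 against spheres. These 3 comparisons share the FIBCL libraries. Pmaip1 also differed between the control media, being 2.82 times higher in SCDM/FGF than in SCDM (log2 difference 0.93 ± 0.14, adjusted p = 0.000235, limma) and 2.18 times higher than in spheres (0.74 ± 0.14, adjusted p = 0.00103, limma), at levels of only 0.746 to 3.13 scaled TPM.

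**Figure D2:**
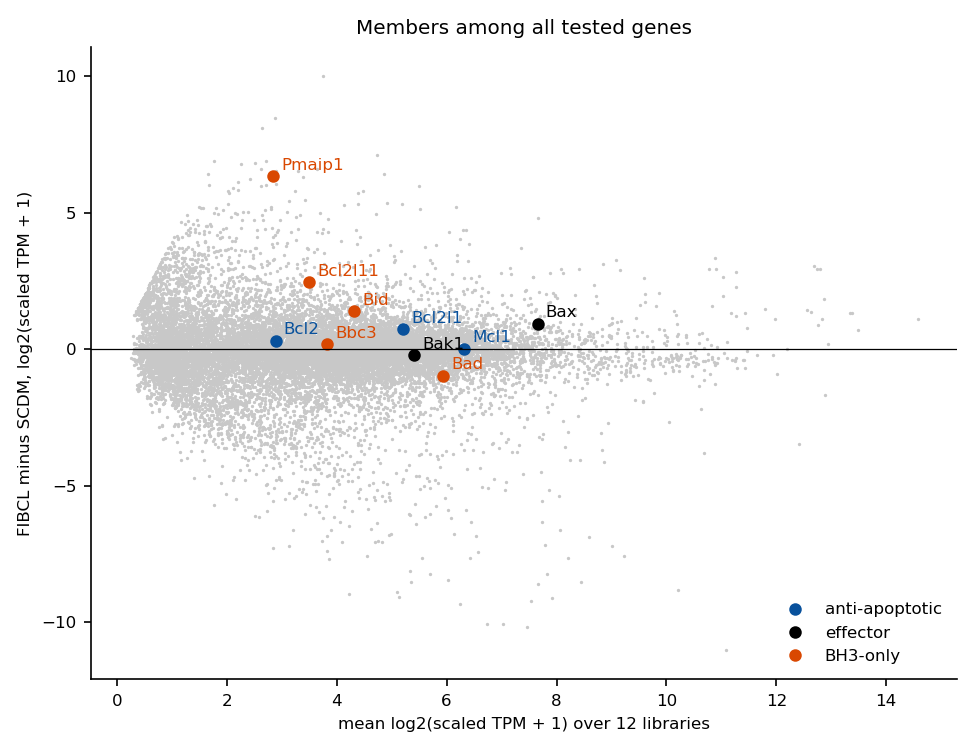
Difference between FIBCL and SCDM in log2(scaled TPM + 1) (vertical axis) against the mean of the same quantity over 12 libraries (horizontal axis), with 1 grey point per tested gene (16016) and the 10 BCL2 family genes in colour by class. Pmaip1, at 6.34, stands near the upper edge of the cloud, and Bcl2, Mcl1, Bak1 and Bbc3 lie within 0.32 of 0.

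Bcl2l11 codes for BIM, which binds every anti-apoptotic family protein and can engage BAX directly. It lies on chromosome 2 (128126038 to 128162547, plus strand). Its level was 31.4, 31.0 and 37.3 scaled TPM in FIBCL, 5.86, 4.49 and 5.29 in SCDM, 9.40, 7.80 and 8.11 in SCDM/FGF and 7.48, 7.12 and 7.09 in spheres. The lowest FIBCL library was above the highest of the rest by more than the range within any group. The mean was 6.37 times that of SCDM (log2 difference 2.46 ± 0.10, adjusted p = 1.56e-09, limma), 3.94 times that of SCDM/FGF (1.86 ± 0.10, adjusted p = 1.84e-08) and 4.59 times that of spheres (2.05 ± 0.10, adjusted p = 8.05e-09). Bcl2l11 was also the BH3-only gene with the lowest SCDM level after Pmaip1, and SCDM was below spheres (−0.41 ± 0.10, adjusted p = 0.00614) and below SCDM/FGF, which exceeded it by 0.60 ± 0.10 (adjusted p = 0.000585).

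Bid codes for a BH3-only protein that caspase-8 cleaves into an active form. It lies on chromosome 6 (120891930 to 120916853, minus strand). FIBCL libraries held 39.7, 44.5 and 41.5 scaled TPM, SCDM 15.0, 16.2 and 14.3, SCDM/FGF 12.8, 10.3 and 11.1, and spheres 18.1, 18.3 and 16.3. FIBCL stood apart from all other groups, and SCDM/FGF was the lowest group. Bid was 2.76 times higher in FIBCL than in SCDM (log2 difference 1.41 ± 0.08, adjusted p = 2.87e-08), 3.67 times higher than in SCDM/FGF (1.79 ± 0.08, adjusted p = 3.77e-09) and 2.39 times higher than in spheres (1.21 ± 0.08, adjusted p = 1.19e-07). SCDM/FGF was lower than SCDM by −0.38 ± 0.08 (adjusted p = 0.00286) and lower than spheres by −0.58 ± 0.08 (adjusted p = 0.000126). SCDM and spheres differed by −0.20 (95% CI −0.38 to −0.02, adjusted p = 0.0657), which passed the test without SCDM library 2 (−0.25, adjusted p = 0.0493) or sphere library 3 (−0.25, adjusted p = 0.0439). Exons of Bid share 628 bases with Bcl2l13 on the opposite strand. The study names an orientation mode for the alignment, but whether strand was used in quantification is not given in the sources used here, and reads from the shared stretch may have gone to either gene. The level of Bcl2l13 was 19.4 to 22.8 in FIBCL and 12.1 to 20.2 in the other groups.

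Bad codes for a BH3-only protein that survival kinases keep inactive by phosphorylation. Of the 5 BH3-only genes followed here, it was the only 1 called lower in each FIBCL comparison. It lies on chromosome 19 (6941861 to 6951899, plus strand). FIBCL libraries held 33.1, 30.6 and 25.1 scaled TPM against 63.9, 62.1 and 49.6 in SCDM, 90.0, 83.0 and 97.7 in SCDM/FGF and 77.7, 93.0 and 83.3 in spheres. FIBCL was below every other library, and SCDM lay between FIBCL and the remaining groups. The FIBCL mean was 0.505 of that in SCDM (log2 difference −0.96 ± 0.12, adjusted p = 1.87e-05), 0.328 of that in SCDM/FGF (−1.58 ± 0.12, adjusted p = 2.63e-07) and 0.350 of that in spheres (−1.49 ± 0.12, adjusted p = 4.52e-07). Bad was lower in SCDM than in spheres (−0.53 ± 0.12, adjusted p = 0.00323), and SCDM/FGF exceeded SCDM by 0.62 ± 0.12 (adjusted p = 0.00134). Its exons share 524 bases with Gpr137 on the opposite strand, which was also low in FIBCL, at 17.9 to 20.2 scaled TPM against 28.2 to 42.1 elsewhere, so that the values of this pair may not be fully separate.

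Bbc3 codes for PUMA, a p53 target that binds all anti-apoptotic proteins. It lies on chromosome 7 (16308393 to 16318205, plus strand). Its level was 15.8, 15.9 and 14.9 scaled TPM in FIBCL, 13.8, 11.8 and 15.0 in SCDM, 8.32, 8.48 and 9.30 in SCDM/FGF and 15.3, 18.9 and 15.9 in spheres. FIBCL overlapped SCDM and spheres, and SCDM/FGF stood below all. The difference between FIBCL and SCDM was 0.19 (95% CI −0.02 to 0.40, adjusted p = 0.0982) and that between FIBCL and spheres −0.09 (95% CI −0.31 to 0.12, adjusted p = 0.4). Without SCDM library 3 the difference from SCDM passed the test (0.26, adjusted p = 0.0395), and without rescaling that from spheres did (−0.61, adjusted p = 0.000121). Against SCDM/FGF, FIBCL was 1.79 times higher (0.77 ± 0.10, adjusted p = 2.21e-05). SCDM/FGF was lower than SCDM (−0.58 ± 0.10, adjusted p = 0.000495) and than spheres (−0.86 ± 0.10, adjusted p = 1.95e-05). The call that SCDM was lower than spheres (−0.28 ± 0.10, adjusted p = 0.0292) was lost without SCDM library 1 (−0.30, adjusted p = 0.0524), SCDM library 2 (−0.20, adjusted p = 0.118) or sphere library 2 (−0.20, adjusted p = 0.117). It was lost as well with only these 2 groups in the model (adjusted p = 0.0835) and with no limit on low values (adjusted p = 0.051).

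Promoter sequence was available here for 9 of the 10 genes, as 15 windows of 300 bases from RefSeq (GRCm38.p6) that run from 250 bases before a start to 50 after it. Some RefSeq starts differ from those of GENCODE, the source of the gene positions. The Mcl1 window ends at 95658770, before the gene start of 95658788. Its end was not found in the first part of a GENCODE transcript of the gene. The same held for the windows that begin at 152828440 (Bcl2l1) and at 16309333 and 16310011 (Bbc3). Short motifs of factors known to act on this family or on cyclic AMP responses were searched on both strands, and they were chosen after the values had been seen. They were the FOXO core GTAAACA, the E-box CACGTG (the site of MYC and its relatives) and the cyclic AMP response element TGACGTCA. Their letters do not overlap in these windows. Bid, Bcl2l1 and Bcl2 were higher in FIBCL than in SCDM, and none of their windows held a match. The printed windows are a matching window of each of Bcl2l11, Bbc3 and Bax and, as an example without a match, that of Bid. They lie at chr2:128125788-128126087 (plus strand) for Bcl2l11, chr7:16310011-16310310 (plus strand) for Bbc3, chr7:45466849-45467148 (minus strand) for Bax and chr6:120916775-120917074 (minus strand) for Bid, each is written 5′ to 3′, and capitals mark the matches.
Bcl2l11: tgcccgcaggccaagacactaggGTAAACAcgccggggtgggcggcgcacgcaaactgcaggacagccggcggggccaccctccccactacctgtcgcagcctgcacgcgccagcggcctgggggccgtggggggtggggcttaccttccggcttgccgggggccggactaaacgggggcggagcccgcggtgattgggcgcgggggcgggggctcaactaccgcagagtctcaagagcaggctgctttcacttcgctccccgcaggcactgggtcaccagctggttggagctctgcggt
Bbc3: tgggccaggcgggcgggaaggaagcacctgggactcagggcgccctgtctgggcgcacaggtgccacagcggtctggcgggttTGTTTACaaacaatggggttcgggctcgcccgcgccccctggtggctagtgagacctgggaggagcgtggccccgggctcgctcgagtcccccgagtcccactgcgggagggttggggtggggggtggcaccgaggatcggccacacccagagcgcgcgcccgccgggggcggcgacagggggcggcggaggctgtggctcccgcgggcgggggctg
Bax: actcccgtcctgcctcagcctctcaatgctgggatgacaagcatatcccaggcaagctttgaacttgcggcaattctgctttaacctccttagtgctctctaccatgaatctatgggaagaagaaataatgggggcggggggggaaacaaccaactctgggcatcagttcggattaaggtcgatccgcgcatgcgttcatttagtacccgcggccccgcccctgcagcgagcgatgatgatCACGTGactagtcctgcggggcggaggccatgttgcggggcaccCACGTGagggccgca
Bid: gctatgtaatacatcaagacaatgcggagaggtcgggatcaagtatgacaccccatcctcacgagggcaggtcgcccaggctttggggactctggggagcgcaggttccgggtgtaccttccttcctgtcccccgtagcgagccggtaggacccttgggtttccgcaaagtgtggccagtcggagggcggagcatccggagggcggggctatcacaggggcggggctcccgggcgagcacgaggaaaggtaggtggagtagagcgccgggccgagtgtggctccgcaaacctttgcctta

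The FOXO core was present in 1 window of Bcl2l11 and 1 of Bbc3, where it is read on the other strand, and in 3.65% of 32851 RefSeq windows of the same length. Bcl2l11 rose in FIBCL against SCDM, and Bbc3 did not pass the test. The E-box occurred at 2 places in the Bax window and at 1 place in another Bbc3 window that overlaps the one shown (chr7:16310181-16310480), against 7.15% of all windows. The cyclic AMP element was in none of the 15 windows, against 1.79% of all. A match describes letters only and does not show that a factor binds.

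Among the effectors, Bax was the most abundant of the 10 genes in every group. It codes for the pore-forming protein BAX and lies on chromosome 7 (45461697 to 45466898, minus strand). The FIBCL libraries held 299, 291 and 299.9 scaled TPM, SCDM 149, 150.3 and 160.0, SCDM/FGF 202, 189.5 and 200.4, and spheres 184, 188 and 170.0. No FIBCL library overlapped another group, and SCDM was the lowest group. Bax was 1.94 times higher in FIBCL than in SCDM (log2 difference 0.95 ± 0.05, adjusted p = 5.41e-09), 1.50 times higher than in SCDM/FGF (0.59 ± 0.05, adjusted p = 3.94e-07) and 1.64 times higher than in spheres (0.71 ± 0.05, adjusted p = 7.16e-08). Bax was lower in SCDM than in spheres (−0.24 ± 0.05, adjusted p = 0.00126), and SCDM/FGF exceeded SCDM by 0.36 ± 0.05 (adjusted p = 6.05e-05). The smaller difference between SCDM/FGF and spheres (0.13 ± 0.05, adjusted p = 0.0378) lost its call under 10 of 17 alternatives, among them no rescaling, which also changed its sign (−0.10, adjusted p = 0.113). Leaving out sphere library 1 or 3 or SCDM/FGF library 1 or 3 gave adjusted p-values of 0.0529, 0.146, 0.106 and 0.0994, and the model with the replicate number as a block gave 0.0619.

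Bak1, the other effector, lies on chromosome 17 (27019810 to 27029009, minus strand). Its exons share 437 and 177 bases with separate entries of Ggnbp1 on the opposite strand. These entries averaged 4.94 and 2.94 scaled TPM over the 12 libraries, and reads from the shared stretches may have gone to either gene. Bak1 held 36.7, 35.5 and 37.3 scaled TPM in FIBCL, 43.5, 42.5 and 40.6 in SCDM, 40.8, 40.7 and 48.4 in SCDM/FGF and 47.1, 40.7 and 45.2 in spheres. FIBCL was below all other libraries, by a small margin. It was lower than in spheres (−0.27 ± 0.07, adjusted p = 0.00564), SCDM/FGF (−0.24 ± 0.07, adjusted p = 0.013) and SCDM (−0.20 ± 0.07, adjusted p = 0.0256). The call against SCDM was lost without SCDM library 1 (adjusted p = 0.0774) or 2 (0.0611) or FIBCL library 1 (0.0516) or 2 (0.0747), and with upper quartile rescaling (−0.16, adjusted p = 0.0632), which also ended the call against SCDM/FGF (−0.15, adjusted p = 0.0736). The level of Bax was 8.12 ± 0.07 (SD, n = 3) times that of Bak1 in FIBCL, 3.63 ± 0.27 in SCDM, 4.58 ± 0.41 in SCDM/FGF and 4.09 ± 0.45 in spheres.

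Each of the anti-apoptotic genes had its own pattern. Bcl2 (chromosome 1, 106538178 to 106714274, minus strand) was highest in spheres, at 10.6, 9.81 and 10.5 scaled TPM. The level was 5.37, 5.30 and 4.56 in SCDM, 4.85, 4.72 and 4.66 in SCDM/FGF and 6.75, 6.52 and 6.43 in FIBCL. All differentiated cultures were thus below spheres, with FIBCL above both control media. Against spheres the differences were −0.90 ± 0.08 in SCDM (adjusted p = 1.91e-06), −0.98 ± 0.08 in SCDM/FGF (adjusted p = 9.93e-07) and −0.58 ± 0.08 in FIBCL (adjusted p = 3.13e-05). FIBCL exceeded SCDM by 0.32 ± 0.08 (adjusted p = 0.00268) and SCDM/FGF by 0.40 ± 0.08 (adjusted p = 0.000609), but without rescaling these differences were −0.022 (adjusted p = 0.829) and 0.13 (adjusted p = 0.22).

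Bcl2l1 (chromosome 2, 152780668 to 152831728, minus strand) separated the groups differently. Its level was 46.8, 43.8 and 50.6 scaled TPM in FIBCL, 41.2, 42.9 and 40.7 in SCDM/FGF, 28.6, 27.8 and 26.4 in SCDM and 31.2, 29.5 and 29.6 in spheres. FIBCL and SCDM/FGF were thus above SCDM and spheres. FIBCL was 1.70 times higher than SCDM (0.75 ± 0.06, adjusted p = 2.75e-07) and 1.56 times higher than spheres (0.63 ± 0.06, adjusted p = 1.39e-06), and SCDM/FGF was 1.51 times higher than SCDM (0.57 ± 0.06, adjusted p = 8.38e-06) and 1.38 times higher than spheres (0.45 ± 0.06, adjusted p = 4.86e-05). Between FIBCL and SCDM/FGF the difference was 0.17 ± 0.06 (adjusted p = 0.0181), with the call lost without FIBCL library 3 (0.12, adjusted p = 0.0802) or SCDM/FGF library 3 (0.16, adjusted p = 0.0557) and the direction turned without rescaling (−0.14, adjusted p = 0.0483). Without rescaling the difference from spheres was 0.09 (adjusted p = 0.146). SCDM and spheres differed by −0.12 (95% CI −0.25 to 0.01, adjusted p = 0.103).

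Mcl1 (chromosome 3, 95658788 to 95663176, plus strand) passed the test in none of the 6 comparisons, with adjusted p-values of 0.0601 to 0.869. Its 12 libraries ran from 73.7 to 82.4 scaled TPM, with means of 81.4 ± 1.04 (SD, n = 3) in FIBCL, 79.9 ± 2.21 in SCDM, 76.3 ± 2.27 in SCDM/FGF and 76.8 ± 3.01 in spheres. The difference between FIBCL and SCDM was 0.03 (95% CI −0.06 to 0.12, adjusted p = 0.566). The direction depended on the scaling: without rescaling Mcl1 was lower in FIBCL than in SCDM (−0.37, adjusted p = 4.1e-05), SCDM/FGF (−0.22, adjusted p = 0.00237) and spheres (−0.46, adjusted p = 6.26e-06), near the shift of the median gene under the same setting (−0.40, −0.31 and −0.51), and it was also lower in SCDM/FGF than in SCDM (−0.15, adjusted p = 0.0348) and spheres (−0.24, adjusted p = 0.00211). With upper quartile rescaling it was higher in FIBCL than in SCDM/FGF (0.18, adjusted p = 0.00313) and spheres (0.15, adjusted p = 0.00902), and without sphere library 3 the difference from spheres passed the test (0.11, adjusted p = 0.0388).

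**Figure D3:**
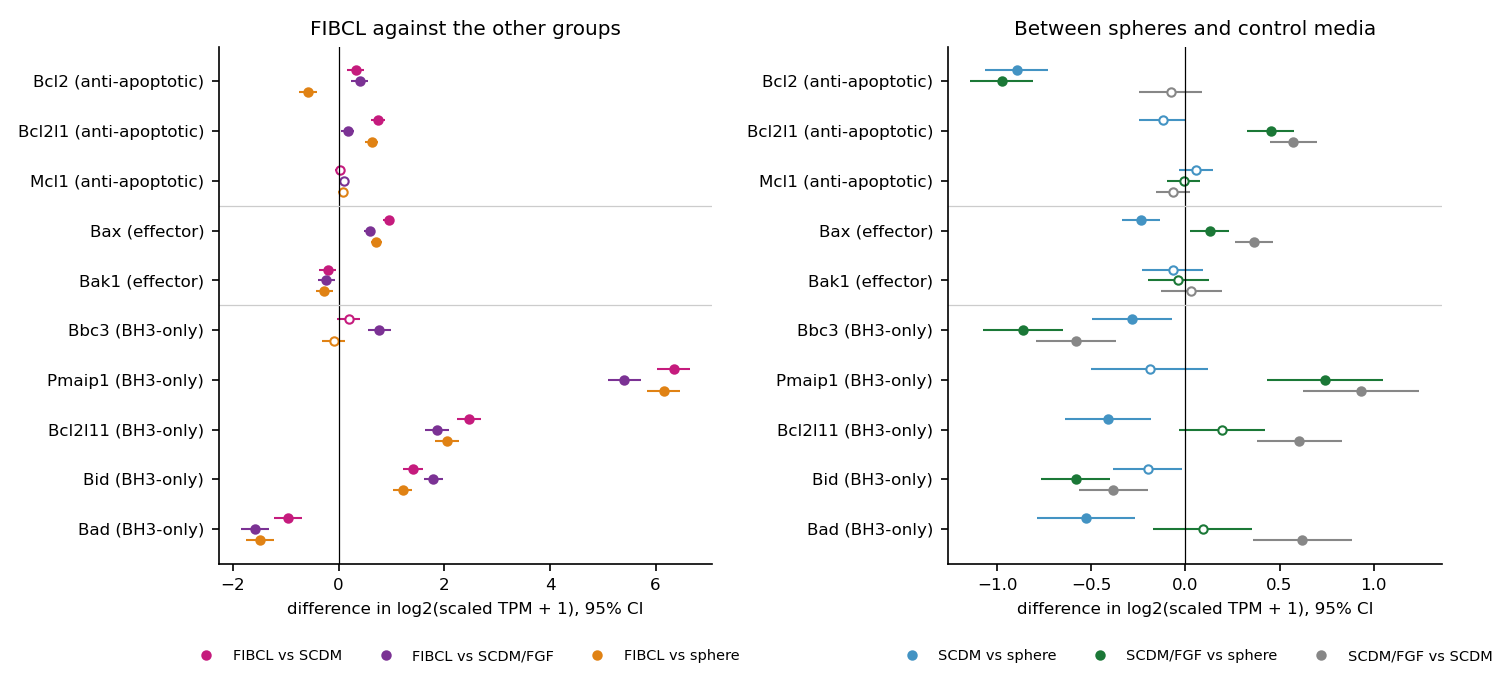
Difference in log2(scaled TPM + 1) with its 95% confidence interval (horizontal axes, on separate scales) for the 10 genes, with FIBCL against each other group on the left and the comparisons among spheres, SCDM and SCDM/FGF on the right. Filled points passed an adjusted p under 0.05 (limma) and open points did not. Pmaip1, Bcl2l11, Bid and Bax lie to the right and Bad to the left of 0 in all 3 FIBCL comparisons.

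Counted together, 8 of the 10 genes were called between FIBCL and SCDM (6 higher, 2 lower), where 71.7% of all tested genes were called, 32.7% higher and 39% lower. Against SCDM/FGF the count was 9 (7 higher, 2 lower), with 70.7% of all genes called, 32.5% higher and 38.2% lower. Against spheres it was 8 (5 higher, 3 lower), with 71.6% called, 32.9% higher and 38.7% lower. The number of called genes was therefore near the background in each FIBCL comparison. With a difference of at least 1 on the log2 scale as well, 3 of the 10 were called against SCDM (all higher, all BH3-only), where 29.3% of all genes were, 13.2% higher. Between SCDM and spheres 5 of the 10 were called, all lower, where 50.3% of all genes were, 24.5% higher and 25.8% lower. Without rescaling this became 8 genes, all lower. Between SCDM/FGF and spheres 6 were called (3 higher, 3 lower), with 50.4% of all genes, 25% higher and 25.4% lower. Between SCDM/FGF and SCDM 7 were called (5 higher, 2 lower), with 43.1% of all genes, 21.8% higher and 21.3% lower. The share of calls that were higher also moved with the scaling: over all genes called between FIBCL and SCDM it was 45.6%, and 26.9% without rescaling, and over the 10 genes the split there became 5 higher and 3 lower. The same split without rescaling was 5 and 4 against SCDM/FGF, 4 and 5 against spheres, 2 and 5 for SCDM/FGF against spheres and 5 and 3 for SCDM/FGF against SCDM.

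By class, the median difference between FIBCL and SCDM was 0.32 for the 3 anti-apoptotic genes (2 higher, 1 not called), 0.37 for the 2 effectors (1 higher, 1 lower) and 1.41 for the 5 BH3-only genes (3 higher, 1 lower, 1 not called), beside −0.07 over all tested genes. Against SCDM/FGF the medians were 0.17, 0.17 and 1.79. Summed levels show the weight of single genes. The sum of the 3 anti-apoptotic genes was 135 ± 2.89 scaled TPM (SD, n = 3) in FIBCL, 113 ± 3.34 in SCDM, 123 ± 2.62 in SCDM/FGF and 117 ± 2.45 in spheres. The sum of the 5 BH3-only genes was 279 ± 2.73, 93.5 ± 7.54, 122 ± 8.67 and 127 ± 9.51 in the same order. The ratio of the BH3-only sum to the anti-apoptotic sum was therefore 2.07 ± 0.03 in FIBCL and 0.829 ± 0.05, 0.992 ± 0.08 and 1.09 ± 0.09 in the others. With Pmaip1 left out the 4 values were 0.891 ± 0.03, 0.821 ± 0.05, 0.969 ± 0.08 and 1.08 ± 0.09, which left FIBCL within the range of the other groups. These sums weigh RNA by level, not by the strength of each protein, and ratios were not tested. Family genes outside the 10 were not in the sums. Of these, anti-apoptotic Bcl2a1b held 7.68 scaled TPM in FIBCL, 30.7 in SCDM, 48.2 in SCDM/FGF and 4.17 in spheres. Bcl2l2, also anti-apoptotic, held 24.8, 25.9, 30.5 and 24.2 in the same order.

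**Figure D4:**
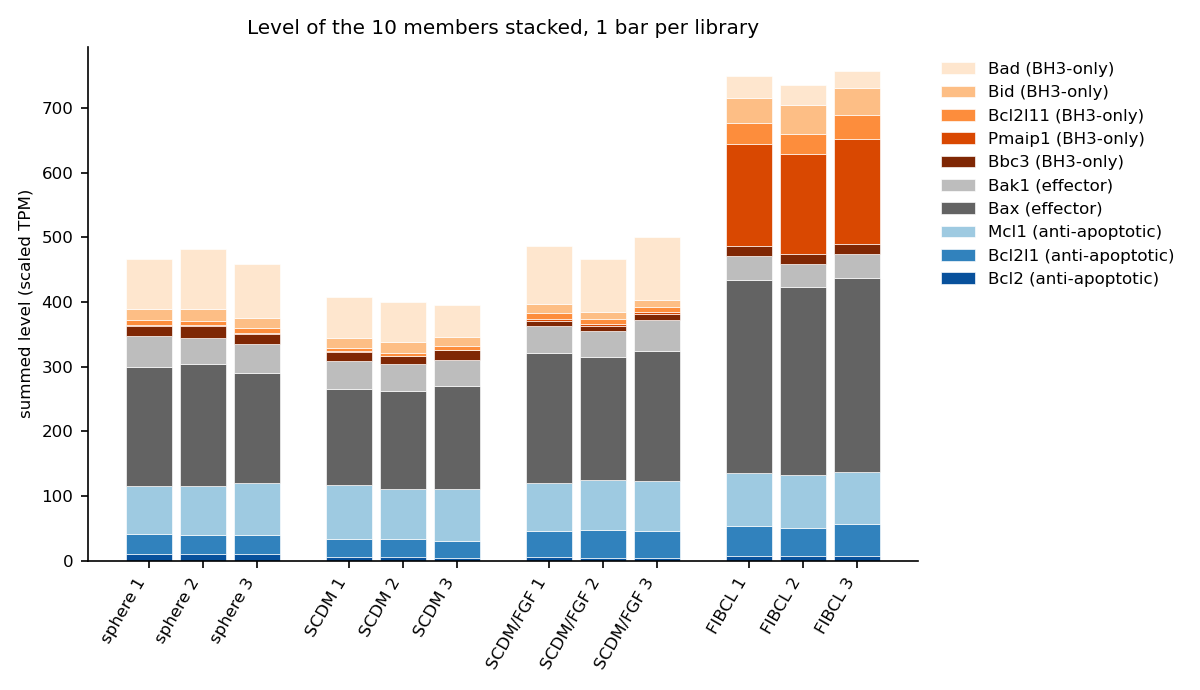
Levels of the 10 genes in scaled TPM (vertical axis, starting at 0), stacked with 1 bar per library and coloured blue for anti-apoptotic, grey for effector and orange to brown for BH3-only genes. The FIBCL bars reach 735 to 757 against 396 to 501 in the other 9 libraries, and Pmaip1 and Bax make up most of the added height.

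Among the 5 BH3-only genes followed here, the makeup turned over in FIBCL. Pmaip1 made up 56.9 ± 0.96% (SD, n = 3) of their summed level in FIBCL and 1.05 ± 0.24%, 2.28 ± 0.22% and 1.02 ± 0.39% in SCDM, SCDM/FGF and spheres. Bad made up 10.6 ± 1.55% in FIBCL and 62.5 ± 3.54%, 74.2 ± 1.47% and 66.4 ± 1.53% in the others. In order of level among the 10 genes, Pmaip1 went from place 10 in each of the other 3 groups to place 2 in FIBCL, whereas Bad went from place 2 or 3 to place 8. Between each BH3-only gene and a known partner, the level of Pmaip1 was 1.95 ± 0.07 times that of Mcl1 in FIBCL and 0.0123, 0.0364 and 0.0167 times in SCDM, SCDM/FGF and spheres. Bcl2l11 stood at 0.705 ± 0.03 of Bcl2l1 in FIBCL and at 0.189 ± 0.02, 0.203 ± 0.02 and 0.240 ± 0.001 in the others. Bad stood at 0.634 ± 0.12 of Bcl2l1 in FIBCL and at 2.12 ± 0.20, 2.17 ± 0.23 and 2.82 ± 0.33. The ratio of Bax to Bcl2, often quoted as a measure of this balance, was 45.2 ± 1.31 in FIBCL, 30.4 ± 4.09 in SCDM, 41.6 ± 1.42 in SCDM/FGF and 17.6 ± 1.48 in spheres, while that of Bax to Bcl2l1 lay between 4.75 and 6.32 in all groups.

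Bax came first and Mcl1 at place 2 or 3 in every group, and Bcl2 was at place 8 to 10. Bak1 went from place 4 in each of the other 3 groups to place 6 in FIBCL, behind Bcl2l1 and Bid. Bcl2l11 went from place 8 or 9 to place 7, ahead of Bbc3, which went from place 7 to place 9. In spheres, Bad (77.7 to 93.0) and Mcl1 (73.9 to 80.0) overlapped, as did Bid (16.3 to 18.3) and Bbc3 (15.3 to 18.9). In SCDM, Bcl2l11 (4.49 to 5.86) and Bcl2 (4.56 to 5.37) overlapped, as did Bid (14.3 to 16.2) and Bbc3 (11.8 to 15.0). In SCDM/FGF, Bak1 (40.7 to 48.4) and Bcl2l1 (40.7 to 42.9) overlapped, as did Bbc3 (8.32 to 9.30) and Bcl2l11 (7.80 to 9.40). In FIBCL, Bcl2l1 overlapped Bid, and Bak1, Bcl2l11 and Bad overlapped in turn.

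Of the other family genes, 11 of 16 passed the limit on low values. The anti-apoptotic Bcl2l2 (BCL-W, known for its place in mature neurons) held 24.8 and 25.9 scaled TPM in FIBCL and SCDM, a difference of −0.06 (adjusted p = 0.523), and was lower in FIBCL than in SCDM/FGF (−0.29, adjusted p = 0.00878). Bcl2a1a, Bcl2a1b and Bcl2a1d, near-identical copies of an anti-apoptotic gene of blood cells whose reads may be split among them, were lower in FIBCL than in SCDM by −2.92, −1.87 and −1.90 (adjusted p = 6.75e-08, 8.21e-09 and 0.000295), as were all 7 macrophage markers. Against spheres, where 6 of those 7 markers were lower, Bcl2a1a was lower (−0.88, adjusted p = 0.00143), Bcl2a1b was higher (0.75, adjusted p = 2.3e-05) and Bcl2a1d was not called (−0.57, adjusted p = 0.144). The effector relative Bok was lower in FIBCL than in SCDM (−0.61, adjusted p = 0.00991), was not called against SCDM/FGF (−0.21, adjusted p = 0.319) and was higher than in spheres (0.45, adjusted p = 0.0441). Among BH3-only and BH3-like genes, Bmf, released by detachment from the cytoskeleton, was lower than in SCDM (1.42 against 5.72 scaled TPM, log2 difference −1.55, adjusted p = 0.000253), as was Bcl2l12 (−0.38, adjusted p = 0.00762). The autophagy genes Bnip3l and Becn1 were higher (0.71, adjusted p = 0.000763, and 0.69, adjusted p = 0.000131). Bnip3, a relative induced by low oxygen, was not called against SCDM (−0.14, adjusted p = 0.255), was lower than in SCDM/FGF (−1.19, adjusted p = 9.33e-07) and was higher than in spheres (0.92, adjusted p = 8.57e-06). Bcl2l13 was not called against SCDM (0.38, adjusted p = 0.068) and was higher than in SCDM/FGF (0.48, adjusted p = 0.0257) and spheres (0.54, adjusted p = 0.0141).

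Downstream of the family, caspase and apoptosome genes went in both directions between FIBCL and SCDM, with 3 of 6 higher, 2 lower and a median of 0.14. Against SCDM/FGF 2 were higher and 3 lower, with a median of −0.19. This list was shortened by 1 gene after the values were seen. Beside the counts of this and the following lists, 32.7% of all tested genes were called higher and 39% lower against SCDM. Against SCDM/FGF these shares were 32.5% and 38.2%. Of 7 mitochondrial release factors and channels, 1 was higher and 4 were lower, and Htra2, a protease released from mitochondria, had the largest difference (15.6 scaled TPM in FIBCL against 41.3, −1.35, adjusted p = 3.32e-08). All 5 genes of the inhibitor of apoptosis (IAP) family were lower, with a median of −0.92. Among them, Birc5 (survivin) also serves cell division. Birc5 held 1.37 scaled TPM against 27.3 (−3.59, adjusted p = 2.77e-10), moving with the dividing cell markers given above.

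Upstream, the death receptor arm that ends on Bid had 2 of 9 genes higher and 6 lower, with a median of −0.78. The shares over all tested genes were again 32.7% higher and 39% lower against SCDM, and 32.5% and 38.2% against SCDM/FGF. Tnfrsf10b, the mouse TRAIL receptor, was 6.42 times higher in FIBCL than in SCDM (79.6 against 12.4 scaled TPM, log2 difference 2.59, adjusted p = 4.62e-12). Casp8, whose product cleaves BID, was lower (7.04 against 19.7, −1.36, adjusted p = 9.15e-08), as were Fas (−1.05, adjusted p = 2.08e-06) and Ngfr, the p75 neurotrophin receptor and also a glial gene (−4.31, adjusted p = 3.56e-11). Fas was highest in SCDM, at 29.2 scaled TPM, and at 13.6 in FIBCL it was not called against SCDM/FGF (12.7, log2 difference 0.10, adjusted p = 0.393) or spheres (16.0, −0.22, adjusted p = 0.0692). Bid rose in the same libraries in which Casp8 fell. Of the transcription factors known to act on BH3-only genes, 9 of 10 were tested, 2 were higher and 5 lower, with a median of −0.33, and against SCDM/FGF 4 were higher and 4 lower, with a median of 0.11. Trp53 was lower (46.9 against 97.8, −1.04, adjusted p = 2.9e-09), as were Ddit3 (CHOP, −1.08, adjusted p = 5.5e-08) and Myc (−2.94, adjusted p = 7.9e-10). Ddit3 was higher in FIBCL than in SCDM/FGF (1.04, adjusted p = 7.92e-08) and spheres (0.28, adjusted p = 0.00316). Against SCDM/FGF, Trp53 (−0.95) and Myc (−3.14) were again lower. The 2 factors that were higher in FIBCL than in SCDM differed by less than 1 on the log2 scale. Foxo3 averaged 37.8 scaled TPM in FIBCL, 24.2 in SCDM, 20.4 in SCDM/FGF and 28.0 in spheres. In the same order, the means of Egr1 were 207, 135, 192 and 257, and those of Foxo1 6.24, 6.65, 4.18 and 7.05. Of 6 genes for the turnover of the MCL1 and BIM proteins, 3 were higher and 3 lower, none by 1 or more, with a median of −0.01 (0.12 against SCDM/FGF, with 3 higher and 2 lower).

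**Figure D5:**
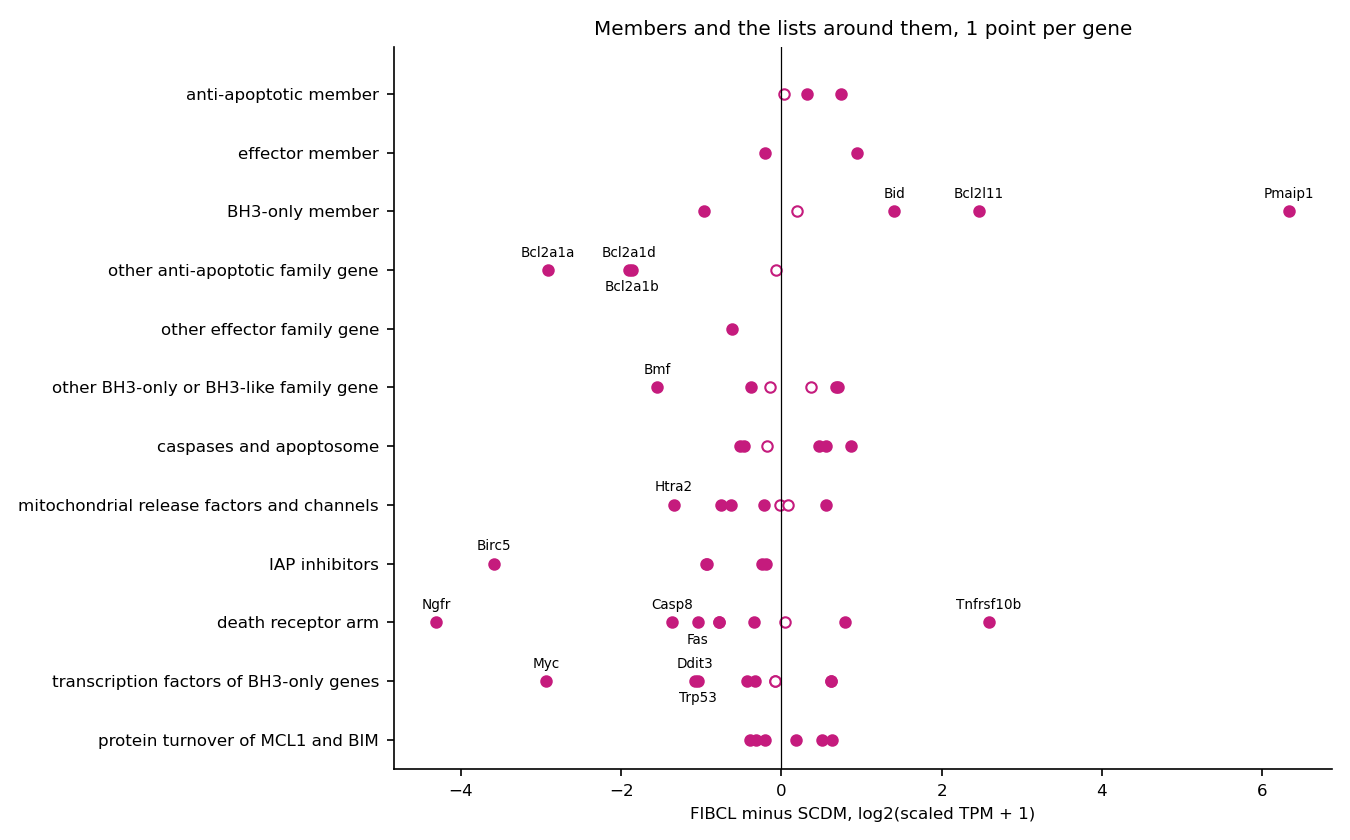
Difference between FIBCL and SCDM in log2(scaled TPM + 1) (horizontal axis) for the 3 classes of the family and 9 lists of related genes (rows), with 1 point per tested gene, filled where the adjusted p was under 0.05 (limma) and named where the difference reached 1. Pmaip1 (6.34) lies farthest to the right and Ngfr (−4.31) farthest to the left, and all 5 IAP genes lie left of 0.

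Across the 12 libraries, the genes with the pattern most like each member were found by Pearson's correlation of log2(scaled TPM + 1) over all tested genes, which describes 4 groups of 3 libraries and so mainly their group means. Pmaip1 was followed most closely by Foxf1 and Grem1 (r = 0.998 for both), Bcl2l11 by Soga3 (0.995) and Stub1 (0.994), Bid by Ehd3 (0.991) and Trio (0.989), and Bad by Ugt1a6a (0.983) and Brip1 (0.982). Bax was closest to Clptm1 and to Cdkn1a, the p21 cell cycle inhibitor (0.991 for both). Bcl2 was closest to Dusp10 (0.993) and Lpar3 (0.982), Bcl2l1 to Gm1972 and Slc2a3 (0.985 for both) and Bbc3 to Mdk (0.959) and Poglut1 (0.956). Mcl1, with the smallest spread, had the lowest values, with Glo1 (0.912) and Ufl1 (0.891), and Bak1 was closest to Slc25a35 (0.935) and Ccr10 (0.912).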

How the data were processed

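Libraries of 4 groups (3 each) were made with an Illumina TruSeq RNA kit. The authors deposited TPM values for 55487 genes, made with SeqPrep and Sickle (trimming), TopHat (alignment, in an orientation mode) and RSEM (quantification). The submitters' processing notes also name Cufflinks. Genome build and use of strand in quantification are not given in the sources used here. The deposited FIBCL columns are named FIBC and were matched to FIBCL, as no other label begins so, although the study also calls the mixture without LIF by that name. The libraries had from 21625 to 22281 genes above 0 and TPM sums of 899295 to 994845. Their depth is unknown, so no counting interval was computed.

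Genes reaching 1 TPM in 3 or more libraries were tested (16016). Libraries were rescaled by a mean log2 ratio, trimmed by 30% at each end, over 8434 genes with 5 TPM or more throughout (mean log2 offset from −0.32 in FIBCL to 0.23 in spheres). With a pseudocount of 1, limma 3.58.1 (R 4.3.3) fitted 1 model of 4 groups with a variance trend and no covariate, and p-values were adjusted by Benjamini-Hochberg within each of 6 comparisons. A ratio is that of mean scaled TPM. On simulated data for FIBCL and SCDM (16016 genes), 200 of 200 genes changed by 2 on the log2 scale were recovered, and 8 unchanged genes were called. The changed genes were drawn from those with higher mean levels, the noise was normal and the values were already rescaled. Low genes, small differences and the choice of scaling were therefore not tested there. Correlations within groups were 0.983 to 0.985, and no pair of libraries was identical. Alternatives changed the scaling, pseudocount, limit, model or libraries.

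The members and lists were chosen with earlier results of these data known. Named were all members, all other family genes in the lists that passed the limit, up to 5 genes per other list with the largest called difference of at least 1 between FIBCL and SCDM, and the 2 genes most correlated with each member. Foxo1, Foxo3 and Egr1 were named outside this rule. Positions are from GENCODE M21 (GRCm38) and promoters from RefSeq (GRCm38.p6). No promoter sequence is printed for Pmaip1. After the values were seen, 1 gene was taken out of the list of caspase and apoptosome genes and is not reported here.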

Additional observations from a re-analysis of the deposited data

How the results depend on the processing

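Of 60 differences (10 genes in 6 comparisons), 37 kept direction and call in each of the 17 alternatives, among them those of Pmaip1, Bcl2l11, Bid, Bad and Bax in all 3 FIBCL comparisons. For FIBCL against SCDM the range over the alternatives was 5.98 to 7.23 for Pmaip1, 2.09 to 2.65 for Bcl2l11, 1.02 to 1.46 for Bid, −1.35 to −0.85 for Bad and 0.55 to 0.99 for Bax. Genes called over the whole table stayed within 1.5 times in each comparison (9356 to 12867 for FIBCL against SCDM).

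More changes came without rescaling than under any other single setting. It shifts the median gene by −0.40 (FIBCL against SCDM), −0.31 (SCDM/FGF) and −0.51 (spheres). There 8 members in place of 5 were called between SCDM and spheres, and 11 differences changed sign: against SCDM, Bcl2 (−0.022), Mcl1 (−0.37) and Bbc3 (−0.18) in FIBCL and Bak1 (−0.052) in SCDM/FGF; against SCDM/FGF, Bcl2l1 (−0.14) and Mcl1 (−0.22) in FIBCL; against spheres, Mcl1 in FIBCL (−0.46) and SCDM (−0.087), and Bax (−0.10), Bcl2l11 (−0.010) and Bad (−0.14) in SCDM/FGF. Of these, Bcl2, Bcl2l1 and Bax had been called. A further 7 differences passed the test there that had not, all lower. The other sign changes were of differences that were not called. Bak1 between SCDM/FGF and SCDM was −0.0066 with upper quartile rescaling and −0.050 to 0.073 with 1 library left out (lowest without SCDM/FGF library 3). Between SCDM/FGF and spheres, Bak1 was −0.12 to 0.0069 and Mcl1 −0.036 to 0.019 with 1 library left out. The share of calls over all genes that were higher moved, without rescaling, from 46.0% to 28.9% (FIBCL against SCDM/FGF), 46.0% to 21.4% (FIBCL against spheres), 48.7% to 33.0% (SCDM against spheres), 49.6% to 26.9% (SCDM/FGF against spheres) and 50.5% to 39.1% (SCDM/FGF against SCDM).

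With the replicate number as a block, members called were 8, 9 and 8 in the FIBCL comparisons, 5 for SCDM and 5 for SCDM/FGF against spheres, and 7 for SCDM/FGF against SCDM, and the one call it ended among members was Bax between SCDM/FGF and spheres (adjusted p = 0.0619). Deviations of same-numbered libraries correlated at −0.12 to 0.0976 over 18 pairs, and those of pairs with different numbers at −0.073 to 0.12. For 0 of 12 libraries was the same-numbered library the best match in every other group. With 3 libraries per group this cannot show whether cultures of the same number had a common source. Low genes such as Pmaip1 outside FIBCL are limited by a depth that is not known.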
